A study of Homo sapiens with 4 samples.

Results

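The genes described here are 10 nuclear genes whose products transcribe the mitochondrial genome, copy it, or stabilize and degrade its RNAs. They were chosen by symbol, as the rows of the expression table named POLRMT, TFAM, TFB2M, TEFM, TWNK, LRPPRC, SLIRP, TBRG4, SUPV3L1 and PNPT1, and each of the 10 symbols stood on 1 of the 59108 rows. The cells were B-CPAP, a line from papillary thyroid carcinoma (PTC). Both groups carried a hairpin. The 2 control libraries had a hairpin against GFP (shGFP), and the 2 LDHA knockdown libraries had a hairpin against LDHA (shLDHA), the A subunit of lactate dehydrogenase. The methods describe the LDHA knockdown vectors as lentiviral, with puromycin selection of infected cells, and do not describe the shGFP vector. The methods do not say whether the libraries of a group came from separate cultures or carried different LDHA hairpins, so p-values measure the spread between these 4 libraries only, which may be technical.

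Mitochondria hold a small circular genome that encodes subunits of the respiratory chain with the tRNAs and rRNAs to translate them, and every protein that transcribes it is imported from the cytosol. POLRMT, the RNA polymerase, is brought to a promoter by TFAM, which bends and packages the DNA, and opens it with TFB2M, while TEFM keeps the polymerase on its long template. TWNK (Twinkle) is the helicase of the replication fork. The long transcripts are cut into single RNAs, of which the mRNAs are held stable by LRPPRC in complex with SLIRP and, for some mRNAs, by TBRG4 (FASTKD4), and RNA is unwound and degraded by SUPV3L1 with PNPT1.

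The comparison asked how the transcriptome changed after LDHA knockdown. The targeted gene was lower in both knockdown libraries: LDHA stood at 1186 and 1183 FPKM (fragments set per transcript length and per sequencing depth) in control libraries 1 and 2 and at 176 and 168 FPKM in knockdown libraries 1 and 2 (-2.44 on the log2 scale after scaling, SE 0.08, adjusted p = 0.0076 by limma). The deposited FPKM summed to 996249 to 1144490 per library, and the steps between the low values gave an approximate depth of 18200000 to 25900000 fragments. The test covered 13291 rows, those that reached 0.5 FPKM in 2 or more libraries, and all 10 genes were among them. Libraries were scaled by TMM (trimmed mean of M values), and as deposited the median log2 fold change of the tested rows was -0.33. The test was limma on log2(FPKM + 0.1), on which changes of low genes come out too small, and a gene was said to have risen or fallen at an adjusted p under 0.05. PAX8, a thyroid transcription factor, was at 65.7 to 99.4 FPKM and the keratins KRT8 and KRT18 at 288 to 422 FPKM, but the other 4 of 6 epithelial markers, KRT19, EPCAM, CDH1 and CLDN4, were at or under 0.2 FPKM in all 4 libraries. Of the other thyroid markers NKX2-1 and TSHR were listed at 0 in all 4 libraries and TG was at or under 0.12 FPKM. FOXE1, also a thyroid marker, passed the filter, at 5.35 and 5.83 FPKM with shGFP and 2.54 and 2.55 FPKM with shLDHA. It fell after knockdown (-0.77 on the log2 scale, adjusted p = 0.029 by limma). The defining markers of blood (PTPRC), T cells (CD3E) and endothelium (CDH5) were listed at 0 in all 4 libraries, and of 5 immune, 4 endothelial and 5 fibroblast markers only CD68 (29.9 to 45.1 FPKM, with a rise after knockdown) and COL1A1 (0.78 to 3.12 FPKM) passed the filter on low values.

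After LDHA knockdown 5 of the 10 genes fell, the helicase gene TWNK, both decay genes SUPV3L1 and PNPT1, the mRNA stabilizer LRPPRC and the initiation factor TFB2M, while 2 rose, the polymerase POLRMT and TBRG4. TFAM, TEFM and SLIRP did not pass the test. Over all tested rows 12.9% fell and 18.1% rose, so that the share of risen genes among the 10 was near that of the table. The median log2 fold change of the 10 was -0.53, against -0.0040 over all tested rows. The 10 genes were chosen with earlier results of these data known, so their comparison with all rows is a description only. In the FPKM as deposited 6 of the 10 were lower at an adjusted p under 0.05, TFAM being the sixth, and 0 were higher, where 23.4% of all rows were lower and 6.8% higher (0 of the 10 were higher at an unadjusted p under 0.05 as well). The falls were thus called with and without scaling, and the rises of POLRMT and TBRG4 only with TMM or upper quartile scaling among the 4 scalings tried, the others being none and an equal FPKM total per library (TPM). Without control library 1 or 2 no row of the table passed, so that all 7 calls were lost there. In bulk RNA, less of a transcript in every cell and fewer cells that carry it cannot be told apart.

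**Figure D1:**
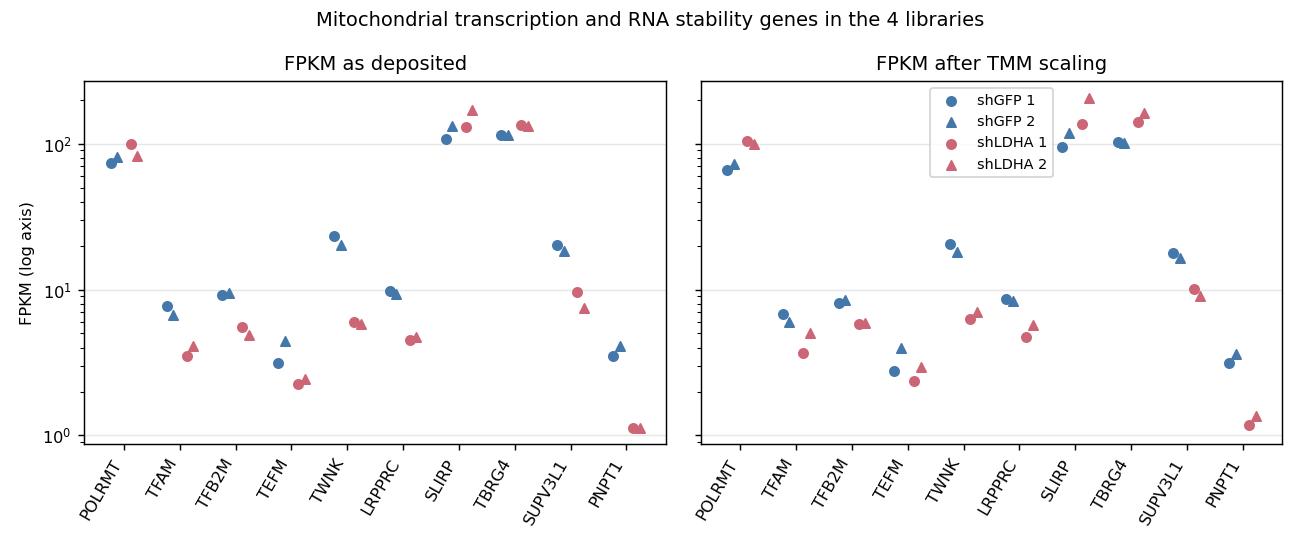
FPKM of each gene (log axis) in control libraries 1 and 2 (blue) and LDHA knockdown libraries 1 and 2 (red), as deposited on the left and after TMM scaling on the right. Each point is 1 library; TWNK and PNPT1 show the widest gaps between the groups, and POLRMT, SLIRP and TBRG4 lie above the other 7 genes in all 4 libraries.

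The sequence before the transcription start is shown for 2 genes with higher values, POLRMT and SLIRP, and 2 that fell, TFB2M and SUPV3L1. It was searched because NRF1 and the ETS factor GABPA are textbook activators of some mitochondrial transcription genes. RefSeq promoters (GRCh38.p14) were found for 9 of the 10 genes, all but TWNK. The 250 bases before the start follow (for SLIRP before the more upstream of 2 listed starts), 5′ to 3′ on the strand of the gene, with capitals for matches on either strand to GCGCANGCG (NRF1), CCGGAAG (ETS, GABPA) and AAGATGGC (YY1), of which SUPV3L1 holds none. By exact match to GRCh37 they lie at chr19:633538-633787 (minus strand), chr14:78174164-78174413 (plus strand), chr1:246729564-246729813 (minus strand) and chr10:70939740-70939989 (plus strand).
POLRMT: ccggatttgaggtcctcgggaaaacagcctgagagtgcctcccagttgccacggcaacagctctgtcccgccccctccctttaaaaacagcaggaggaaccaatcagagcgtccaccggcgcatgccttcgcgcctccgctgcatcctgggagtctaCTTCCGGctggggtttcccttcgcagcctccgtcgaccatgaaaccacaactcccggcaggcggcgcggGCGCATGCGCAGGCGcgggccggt
SLIRP: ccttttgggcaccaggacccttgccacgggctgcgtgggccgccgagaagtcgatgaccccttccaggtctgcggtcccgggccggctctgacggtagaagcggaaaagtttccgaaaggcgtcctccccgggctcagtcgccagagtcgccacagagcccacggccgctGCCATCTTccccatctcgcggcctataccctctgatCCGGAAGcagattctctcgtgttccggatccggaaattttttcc
TFB2M: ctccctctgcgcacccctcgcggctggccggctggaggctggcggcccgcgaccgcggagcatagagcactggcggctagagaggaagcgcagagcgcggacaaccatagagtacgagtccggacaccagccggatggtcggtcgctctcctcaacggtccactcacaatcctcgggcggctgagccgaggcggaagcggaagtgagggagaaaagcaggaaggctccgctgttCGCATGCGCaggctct
SUPV3L1: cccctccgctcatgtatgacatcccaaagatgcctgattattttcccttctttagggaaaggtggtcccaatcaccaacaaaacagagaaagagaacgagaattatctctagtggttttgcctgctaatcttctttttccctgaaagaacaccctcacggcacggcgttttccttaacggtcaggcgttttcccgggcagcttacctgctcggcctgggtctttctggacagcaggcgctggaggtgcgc

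The ETS letters stood in the windows of POLRMT, SLIRP and TBRG4 and in none of the other 6 windows. They stood in 8.52% of all 35093 promoter windows of the same length and 14.4% of those of tested genes. NRF1 letters stood in the windows of POLRMT, TFAM and TFB2M, against 6.57% of all windows and 11.6% of those of tested genes. In POLRMT 3 matches, counted over both strands, overlap from position -24 to -10 (the base before the start is -1). The NRF1 pattern had been shortened by 1 letter after a first search, so these shares are descriptive only. YY1 letters stood in that of SLIRP, against 1.36% of all windows and 1.78% of those of tested genes. The letters CACGTG, the E-box that MYC binds, stood in none of the 9, against 6.34% of all windows and 8.5% of those of tested genes. GGGGCGGGG (SP1) stood in that of TFAM alone, against 15.1% and 25%. Whether any of these letters bear on the changes after knockdown was not tested. A match describes letters and does not show that a factor binds there, and a missing match says only that these letters are not in the window.

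Among the genes of transcription POLRMT rose and TFB2M fell, while TFAM and TEFM, both with lower means after knockdown, did not pass the test. POLRMT, the mitochondrial RNA polymerase, measured 74.4 and 81.8 FPKM with shGFP (libraries 1 and 2) against 100.3 and 82.6 FPKM with shLDHA as deposited. The lower knockdown library therefore lay just above the higher control library before scaling. After scaling POLRMT rose from 69.4 ± 5.07 to 102 ± 3.56 FPKM (SD, n = 2 each), or 0.56 on the log2 scale (SE 0.09, adjusted p = 0.017 by limma). Without scaling the change was 0.22 (adjusted p = 0.28 by limma), with TPM scaling 0.07 (0.72), and without control library 1 or 2 the adjusted p was 0.17 or 0.13. Over the 16 alternatives tried it lay between 0.010 and 0.72.

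TFAM, which coats and bends mitochondrial DNA, measured 7.72 and 6.70 FPKM with shGFP (libraries 1 and 2) against 3.51 and 4.13 FPKM with shLDHA. Both knockdown libraries lay below both controls. After scaling it stood at 6.40 ± 0.60 and 4.34 ± 0.94 FPKM (SD, n = 2 each), which is -0.56 on the log2 scale with a 95% interval from -1.10 to -0.03 (SE 0.20, adjusted p = 0.095 by limma). Without scaling the change was -0.90 (adjusted p = 0.026 by limma), so that the call turned on the scaling, and it also passed without knockdown library 2 (-0.78, limma adjusted p = 0.046). The range of its adjusted p over the 16 alternatives was 0.015 to 0.36.

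TFB2M, which melts the promoter DNA, measured 9.14 and 9.51 FPKM with shGFP (libraries 1 and 2) against 5.53 and 4.88 FPKM with shLDHA, with no overlap. After scaling it fell from 8.28 ± 0.29 to 5.85 ± 0.085 FPKM (SD, n = 2 each), or -0.49 on the log2 scale (SE 0.11, adjusted p = 0.035 by limma). The call was lost without any 1 library, with limma adjusted p of 0.20 (control library 1), 0.21 (control library 2), 0.060 (knockdown library 1) and 0.056 (knockdown library 2), and with no filter on low FPKM (0.056). Over the 16 alternatives it lay between 0.013 and 0.21.

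TEFM, the elongation factor, measured 3.15 and 4.47 FPKM with shGFP (libraries 1 and 2) against 2.24 and 2.42 FPKM with shLDHA. It was the only one of the 10 whose groups overlapped after scaling, at 2.78 and 3.99 against 2.35 and 2.93 FPKM. The scaled means were 3.39 ± 0.85 and 2.64 ± 0.41 FPKM (SD, n = 2 each), or -0.34 on the log2 scale, with a 95% interval from -0.999 to 0.33 (SE 0.25, adjusted p = 0.34 by limma). With TPM scaling alone of the 16 alternatives it passed (adjusted p = 0.047 by limma), in a range of 0.047 to 0.85. An estimated 42 to 101 fragments per library lay behind these values, the fewest among the 10, and a change of the size seen for TFB2M lies within the interval.

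TWNK, the gene of the replicative helicase Twinkle, had the largest change of the 10. It measured 23.4 and 20.3 FPKM with shGFP (libraries 1 and 2) against 6.01 and 5.82 FPKM with shLDHA. The highest knockdown value was thus far below the lowest control value. After scaling TWNK fell from 19.4 ± 1.80 to 6.67 ± 0.53 FPKM (SD, n = 2 each), 2.91-fold lower, or -1.53 on the log2 scale (SE 0.12, adjusted p = 0.0077 by limma). Only 1.67% of all tested rows had a lower log2 fold change. The fold change of TWNK lay between -2.02 and -1.39 over the 16 alternatives, and its call was lost only without control library 1 or 2 (limma adjusted p = 0.14 and 0.13), in fits where no row of the table passed. TWNK overlaps MRPL43, a ribosomal protein gene on the other strand, over 149 bases, and strand use in the counting is not stated, so reads of the overlap can belong to either gene. MRPL43 itself measured 175 and 179 FPKM with shGFP (libraries 1 and 2) against 197 and 184 FPKM with shLDHA, or 0.45 on the log2 scale (SE 0.08, adjusted p = 0.021 by limma).

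**Figure D2:**
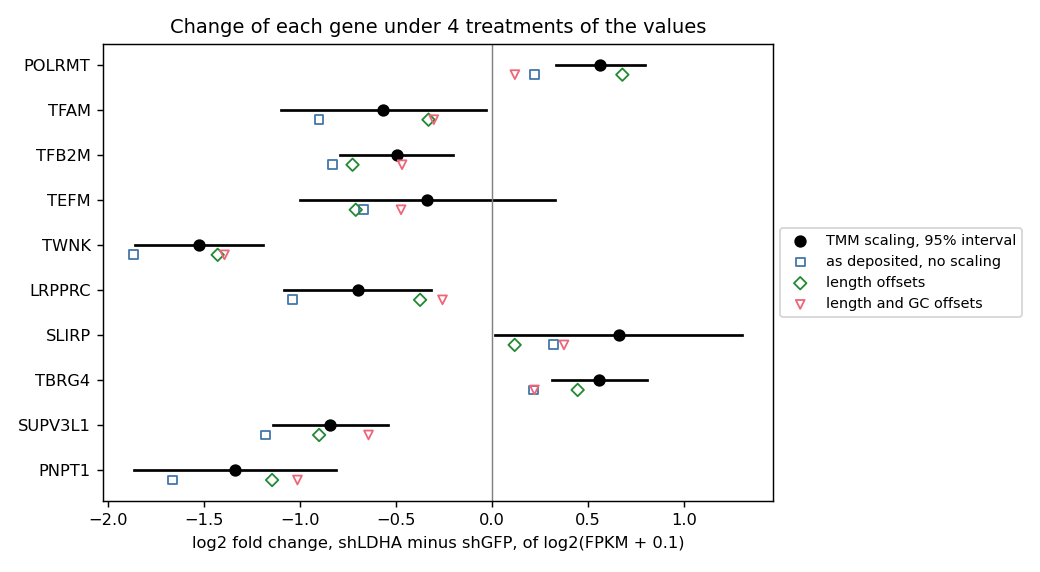
Log2 fold change of each gene, LDHA knockdown minus control (horizontal axis, on log2(FPKM + 0.1)), after TMM scaling with its 95% interval from limma (black, n = 2 libraries a group), as deposited (squares), after length offsets (diamonds) and after length and GC offsets (triangles). TWNK, SUPV3L1 and PNPT1 lie below -0.6 under all 4 treatments, and POLRMT and TBRG4 lie between 0.12 and 0.68.

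Of the mRNA stabilizers LRPPRC fell and TBRG4 rose, and SLIRP did not pass the test. LRPPRC, a pentatricopeptide repeat protein that holds mitochondrial mRNAs, measured 9.82 and 9.30 FPKM with shGFP (libraries 1 and 2) against 4.51 and 4.71 FPKM with shLDHA. The groups did not overlap, and the deposited values of each pair were close together. After scaling LRPPRC fell from 8.49 ± 0.27 to 5.21 ± 0.69 FPKM (SD, n = 2 each), or -0.70 on the log2 scale (SE 0.14, adjusted p = 0.029 by limma). The call was lost after length offsets (-0.37, limma adjusted p = 0.13), with no filter on low FPKM (0.054) and without control library 1 or 2 (0.20 and 0.17), and the adjusted p ranged from 0.011 to 0.25 over the 16 alternatives.

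SLIRP, the small RNA-binding partner of LRPPRC, measured 108 and 133 FPKM with shGFP (libraries 1 and 2) against 130 and 171 FPKM with shLDHA. Knockdown library 1 lay below control library 2 as deposited, and after scaling both knockdown libraries lay above both controls. SLIRP stood at 107 ± 16.5 and 172 ± 50.4 FPKM (SD, n = 2 each), which is 0.66 on the log2 scale with a 95% interval from 0.02 to 1.31 (SE 0.24, adjusted p = 0.10 by limma). Without knockdown library 1 the log2 fold change was 0.96 (limma adjusted p = 0.030) and without knockdown library 2 it was 0.36 (0.17), so that the value depended on 1 library. It also depended on the scaling and on length, at 0.16 with TPM scaling (adjusted p = 0.51 by limma), 0.32 with no scaling (0.24), 0.12 after length offsets (0.54) and 0.38 after length and GC offsets (0.10), and the adjusted p ranged from 0.029 to 0.54 over the 16 alternatives. The gene span of SLIRP, introns included, overlaps that of SNW1, on the other strand, over 43506 bases. The SLIRP transcript has only 376 bases, and how much of the overlap lies in exons was not computed. SNW1 measured 16.0 and 17.9 against 11.1 and 11.4 FPKM as deposited (-0.25 after scaling, SE 0.13, adjusted p = 0.21 by limma).

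TBRG4, a FASTK family protein that stabilizes some mitochondrial mRNAs, measured 116 and 114 FPKM with shGFP (libraries 1 and 2) against 134 and 133 FPKM with shLDHA. Both knockdown libraries lay above both controls before and after scaling. After scaling it rose from 102 ± 0.17 to 151 ± 14.6 FPKM (SD, n = 2 each), or 0.56 on the log2 scale (SE 0.09, adjusted p = 0.020 by limma). Without scaling the change was 0.22 (adjusted p = 0.16 by limma), with TPM scaling 0.06 (0.63), and without control library 1 or 2 the adjusted p was 0.18 or 0.16. It was 0.051 with no variance trend and lay between 0.0078 and 0.63 over the 16 alternatives. The span of TBRG4 also holds the snoRNA genes SNORA5A, SNORA5B and SNORA5C on the same strand.

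Both genes of RNA decay fell. SUPV3L1, the helicase that feeds RNA to the nuclease, measured 20.3 and 18.4 FPKM with shGFP (libraries 1 and 2) against 9.63 and 7.47 FPKM with shLDHA. After scaling it fell from 17.2 ± 1.08 to 9.56 ± 0.73 FPKM (SD, n = 2 each), 1.80-fold lower, or -0.84 on the log2 scale (SE 0.11, adjusted p = 0.014 by limma). PNPT1, the exoribonuclease PNPase, measured 3.53 and 4.08 FPKM with shGFP (libraries 1 and 2) against 1.13 FPKM in both shLDHA libraries. It was the lowest of the 10 in both knockdown libraries, with an estimated 88 and 126 fragments there. After scaling PNPT1 fell from 3.38 ± 0.37 to 1.28 ± 0.13 FPKM (SD, n = 2 each), 2.65-fold lower, or -1.34 on the log2 scale (SE 0.20, adjusted p = 0.016 by limma), and 2.51% of all tested rows had a lower one. Both calls stood in 14 of the 16 alternatives, all but those without control library 1 or 2, where the adjusted p were 0.16 and 0.13 for SUPV3L1 and 0.15 and 0.14 for PNPT1.

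Counted by overlap, 6 of the 10 genes had both knockdown libraries below both controls after scaling and 3 had both above, where 36.1% and 36.4% of all tested rows did. As deposited 7 lay below and 2 above (POLRMT and TBRG4), where 52.8% and 20% of all tested rows did. The share below was thus high over the whole table in the deposited values.

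The levels of the 10 genes, which FPKM allow to be compared because they are set per length, lay in 2 ranges in every library. SLIRP, TBRG4 and POLRMT had 66 to 208 scaled FPKM, and the other 7 had 1.18 to 20.7 scaled FPKM. In the control libraries TWNK and SUPV3L1 followed, then LRPPRC, TFB2M and TFAM, then TEFM and PNPT1. SLIRP and TBRG4 changed places between the libraries of each group, and so did LRPPRC with TFB2M and TEFM with PNPT1 in the control pair, so these neighbours did not differ beyond their spread, and no others changed places within a group. In the knockdown libraries SUPV3L1 stood above TWNK in both, the reverse of both control libraries. The 3 genes of the high range were the 3 with log2 fold changes above 0, and all 7 of the low range had log2 fold changes below 0. SLIRP, at 376 bases, is little longer than the estimated fragments of 250 to 280 bases. An estimated 223 to 560 fragments a library lay behind its values, against 152 to 314 for TFB2M of the low range. The place of SLIRP in the high range thus rests on the length correction.

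Ratios of partner genes within a library do not depend on how the libraries are scaled. The FPKM ratio of LRPPRC to SLIRP was 0.091 and 0.070 with shGFP and 0.035 and 0.027 with shLDHA, a difference of -1.37 between the mean log2 ratios. The ratio of POLRMT to TFAM went from 9.64 and 12.2 to 28.6 and 20.0, a difference of 1.14 on the log2 scale. For both pairs the knockdown libraries lay wholly outside the control range. The ratio of POLRMT to TEFM was 23.6 and 18.3 with shGFP and 44.8 and 34.1 with shLDHA. The helicase SUPV3L1 and the nuclease PNPT1 had a ratio of 5.75 and 4.51 with shGFP and 8.52 and 6.61 with shLDHA, so that the nuclease gene was lower by more than the helicase gene. TFB2M and TFAM had ratios of 1.18 and 1.42 in the control libraries against 1.58 and 1.18 in the knockdown libraries, which overlapped. With 2 libraries against 2, an exact two-sided permutation test of a single ratio cannot give a p under 0.333, so none was run. The partners differ in transcript length and GC content. After length offsets the log2 fold changes were -0.37 for LRPPRC against 0.12 for SLIRP, closer together than the ratio has them, and 0.68 for POLRMT against -0.33 for TFAM. After length and GC offsets they were -0.26 against 0.38 for the first pair and 0.12 against -0.30 for the second.

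**Figure D3:**
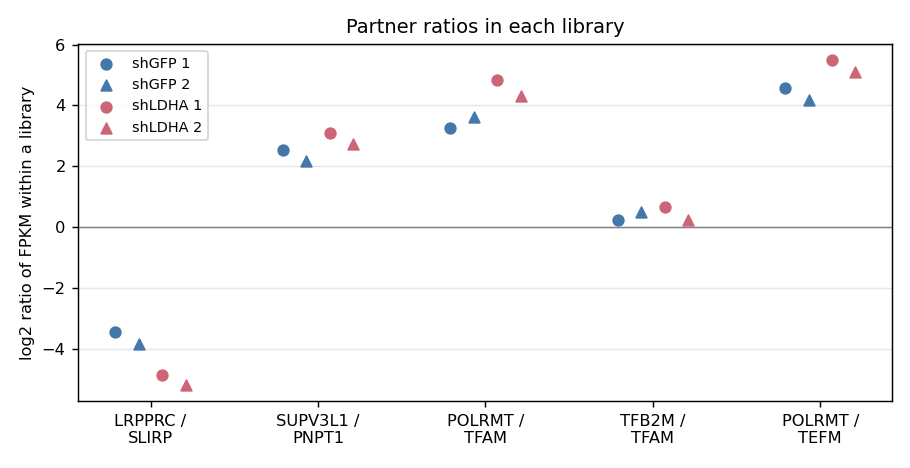
Log2 ratio of the deposited FPKM of 2 partner genes within each library (vertical axis) for 5 pairs, in control libraries (blue) and LDHA knockdown libraries (red). Each point is 1 library; the groups are apart for LRPPRC over SLIRP, SUPV3L1 over PNPT1, POLRMT over TFAM and POLRMT over TEFM, and overlap for TFB2M over TFAM.

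Fold changes over the whole table moved with properties of the transcript, and the 10 genes differ in both. Over the tested rows that could be matched to a length and GC content (11919 rows), the log2 fold change had a Spearman's rho of -0.41 with transcript length and of 0.39 with GC content across genes, which are not independent replicates. In the decile of rows with transcripts as short as that of SLIRP (376 bases) the median log2 fold change was 0.55, and in the decile that holds LRPPRC (6603 bases) it was -0.31. In the decile with the highest GC content, where POLRMT lies (66.1%), it was 0.62, and in that of TBRG4 (59.0%) it was 0.40. The change of POLRMT differed by 0.75 from the median of its length decile and by -0.05 from that of its GC decile, that of TBRG4 by 0.48 and 0.16, and that of SLIRP by 0.12 and 0.92. TWNK, at 3616 bases and 53.8% GC, differed by -1.44 from the median of its length decile and by -1.55 from that of its GC decile. PNPT1, at 4549 bases and 39.7% GC, differed by -1.09 and -1.05, and SUPV3L1, at 2477 bases and 45.6% GC, by -0.92 and -0.59.

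After offsets that removed the trend with length in each library, 4 of the 10 genes fell and 2 rose, where 12.1% of all rows fell and 16.5% rose. LRPPRC was the gene that lost its call. After offsets for length and GC content together, an alternative chosen after the data were seen, 4 fell and 0 rose (1 had an unadjusted p under 0.05 above 0), where 9.3% of all rows fell and 11.1% rose. Those 4 were TWNK (-1.39, limma adjusted p = 0.013), PNPT1 (-1.01, 0.033), SUPV3L1 (-0.64, 0.026) and TFB2M (-0.47, 0.047), while POLRMT was at 0.12 (0.34) and TBRG4 at 0.22 (0.19). These offsets also remove any change that runs with length or GC content, and their part in the changes was not tested.

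**Figure D4:**
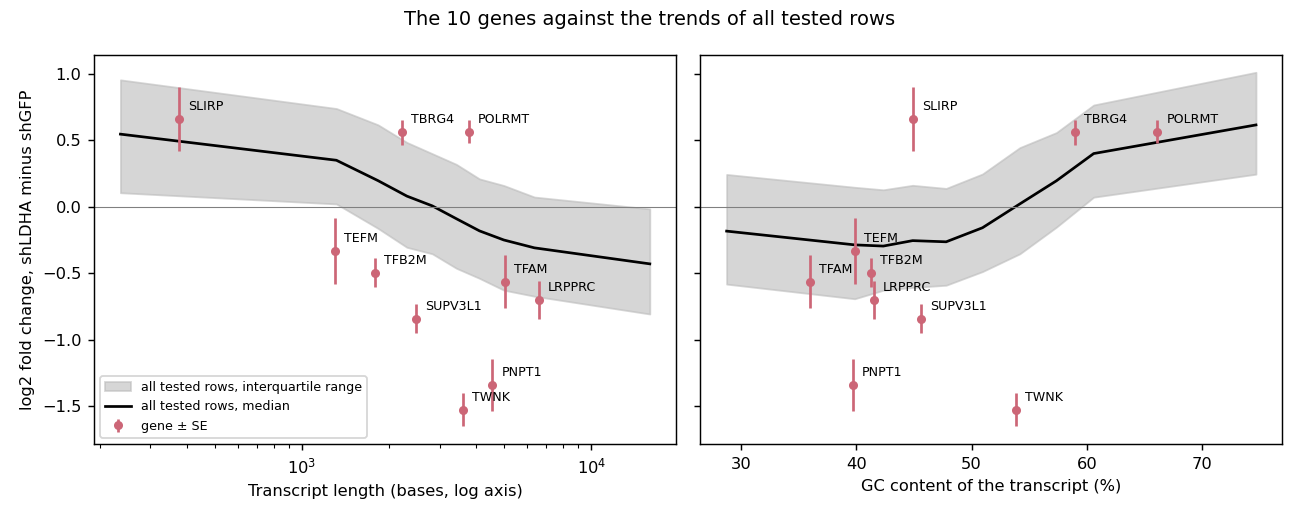
Log2 fold change of each gene ± SE (red points, n = 2 libraries a group) against its transcript length in bases on a log axis (left) and its GC content in percent (right). The black line is the median and the grey band the interquartile range of all tested rows in deciles of that property. TWNK, PNPT1, SUPV3L1 and, only just, LRPPRC lie below the band in both panels. POLRMT and TBRG4 lie within it for GC content and above it for length.

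In GENCODE (version 44 on GRCh37), POLRMT lies on chromosome 19 from 617221 to 633537, TBRG4 on chromosome 7 from 45139699 to 45151646, TFB2M on chromosome 1 from 246703863 to 246729563 and TEFM on chromosome 17 from 29224354 to 29233256, all on the minus strand. On chromosome 10, all on the plus strand, lie TFAM from 60145105 to 60158980, SUPV3L1 from 70939990 to 70968855 and TWNK from 102747124 to 102754160. On chromosome 2, on the minus strand, lie LRPPRC from 44113363 to 44223365 and PNPT1 from 55861196 to 55920998, and SLIRP lies on the plus strand of chromosome 14 from 78174414 to 78227447. The 3 genes of chromosome 10 had log2 fold changes of -0.56, -0.84 and -1.53 and the 2 genes of chromosome 2 had -0.70 and -1.34, and all 5 are far apart on their chromosome.

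Among other genes of mitochondrial gene expression some fell and some rose, as did 12.9% and 18.1% of all tested rows. Of 7 further factors of transcription and termination, 2 fell and 0 rose (0 at an unadjusted p under 0.05 as well), with a median log2 fold change of 0.01. The 2 were MTERF4, which acts with a methyltransferase on the mitochondrial ribosome (log2 fold change -0.54, standard error 0.12, limma adjusted p = 0.032), and MTERF3, a repressor of transcription initiation (-0.48, SE 0.11, adjusted p = 0.035 by limma). Both calls were lost with no filter on low FPKM (adjusted p = 0.056 and 0.054) and with no variance trend (0.056 and 0.052), and that of MTERF3 without knockdown library 2 (0.062). Of 14 factors of mitochondrial DNA replication and upkeep, 2 rose, MPV17, an inner membrane protein needed for the nucleotide pool (0.69), and DGUOK, deoxyguanosine kinase (0.45, but -0.044 with TPM scaling), and 1 fell, TOP3A, a topoisomerase (-0.93), with a median of -0.28. TOP3A had the lowest log2 fold change of the 14, above that of TWNK (-1.53), and the difference between these genes was not tested. MPV17 did not pass with no scaling (0.35, adjusted p = 0.067 by limma), TPM scaling (0.19, 0.19) or length offsets (0.23, 0.057). DGUOK passed under none of the other scalings, nor with length offsets (0.014, adjusted p = 0.90 by limma) or no filter (0.45, 0.076), and TOP3A not with length offsets (-0.61, 0.053) or no filter (-0.94, 0.052).

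Of 24 genes of RNA processing, polyadenylation and RNA granules, 6 fell and 4 rose, with a median of -0.19. Over all tested rows 12.9% fell and 18.1% rose, so that the share of risen genes was near that of the table. RPUSD4, a pseudouridine synthase, rose from 13.65 and 14.99 to 24.84 and 21.78 FPKM (log2 fold change 1.04), and RPUSD3, another pseudouridine synthase, by 0.64, which did not pass with no scaling (0.29, adjusted p = 0.12 by limma), TPM scaling (0.14, 0.37) or length offsets (0.24, 0.061) and turned to -0.046 with length and GC offsets. FASTKD5, a FASTK family protein of RNA processing and a relative of TBRG4, went the other way, from 6.85 and 6.81 to 2.29 and 2.19 FPKM (-1.23), and ELAC2, which cuts the 3′ ends of tRNAs, went from 62.8 and 62.8 to 35.4 and 27.9 FPKM (-0.65). Of 17 genes of tRNA and rRNA modification, 3 fell, MRM2 (-0.84), TRMU (-0.43) and MTO1 (-0.64), and 1 rose, QTRT1 (0.48, but -0.019 with TPM scaling and -0.25 with length and GC offsets), with a median of -0.20. MTO1 did not pass with length offsets (-0.23, adjusted p = 0.29 by limma), no filter (0.071) or without knockdown library 1 (0.072) or 2 (0.070), nor TRMU with no variance trend (0.058), nor QTRT1 with no scaling (0.14, 0.37) or length offsets (0.11, 0.28). MRM2 methylates the large rRNA, and TRMU, MTO1 and QTRT1 modify tRNAs.

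Of 12 genes, nuclear regulators and the protease of TFAM, 11 were tested, 4 fell and 2 rose, with a median of -0.65. The shares over all tested rows were 12.9% fallen and 18.1% risen, and the risen share of the list was near the latter. With length and GC offsets 2 fell, and 0 rose there or with TPM scaling. Among the regulators ESRRA rose from 22.34 and 24.05 to 30.63 and 34.26 FPKM (log2 fold change 0.82, limma adjusted p = 0.024). CREB1 fell (-1.09, limma adjusted p = 0.023). MYC, a transcription factor that promotes mitochondrial biogenesis, went from 185 and 175 to 105 and 84.4 FPKM (log2 fold change -0.59, limma adjusted p = 0.013). PPRC1, a coactivator of the PGC-1 family, fell by 0.80 on the log2 scale (limma adjusted p = 0.016) and GABPB1, the partner subunit of GABPA, by 0.88 (0.019). LONP1, the protease that degrades TFAM in the matrix, rose from 117 and 119 to 149 and 162 FPKM (0.74, limma adjusted p = 0.022), but did not pass with no scaling (0.40, 0.051), TPM scaling (0.24, 0.13), no variance trend (0.051) or length and GC offsets (0.34, 0.19). PPARGC1A, the gene of PGC-1α, was listed at 0 in all 4 libraries.

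**Figure D5:**
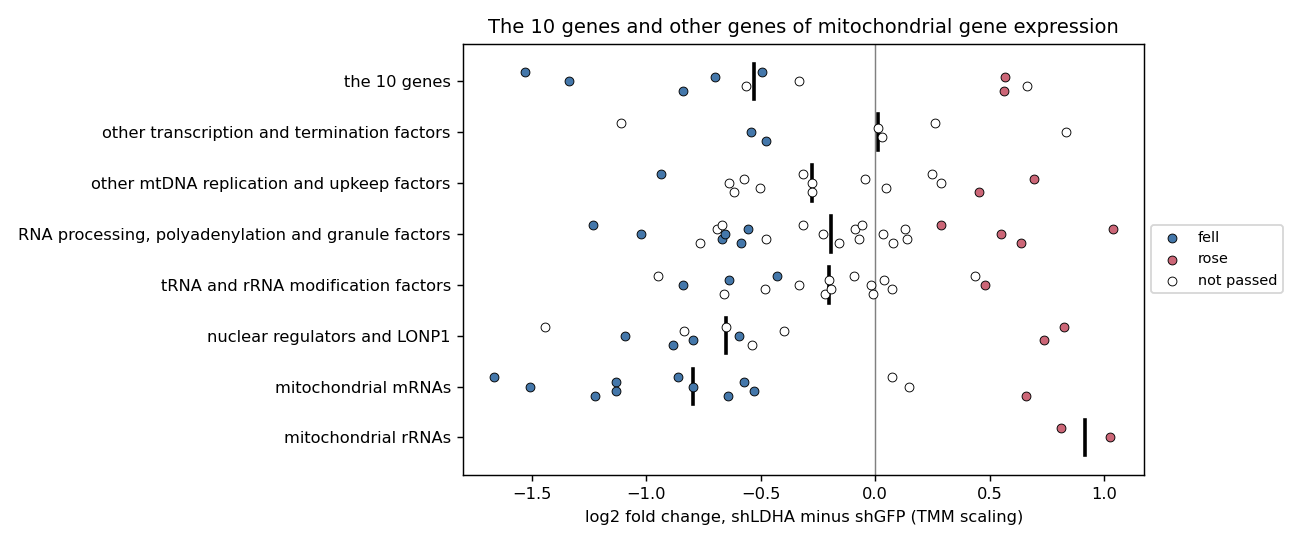
Log2 fold change after TMM scaling of the 10 genes (top row) and of each tested gene of the other lists, 1 point a gene, blue where it fell, red where it rose and white where it did not pass limma at an adjusted p under 0.05. Black bars are medians, from -0.80 in the mitochondrial mRNAs and -0.53 in the 10 genes to 0.92 in the mitochondrial rRNAs.

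The RNAs that these proteins make and hold did not move one way. Of 13 mRNAs of the mitochondrial genome 10 fell and 1 rose, with MT-ND5 (-1.66), MT-ND6 (-1.51), MT-ND4L (-1.13) and MT-ND2 (-1.13) at the lowest p, whereas both rRNAs rose, MT-RNR1 from 509 and 510 to 721 and 924 FPKM (1.02, limma adjusted p = 0.028) and MT-RNR2 from 2095 and 2042 to 3050 and 2676 FPKM (0.81, limma adjusted p = 0.0091). Over all tested rows 12.9% fell and 18.1% rose. With no filter 6 of the 13 mRNAs fell, and with no variance trend 8 did. With no scaling, TPM scaling, length offsets or no filter 0 of the 13 rose. MT-RNR1 did not pass with length offsets (0.55, adjusted p = 0.060 by limma), no filter (0.063) or no variance trend (0.055), nor MT-RNR2 with TPM scaling (0.31, 0.080). Overlapping genes and nuclear copies can share reads of this genome, and the libraries were made with an mRNA kit, so single values are uncertain.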

How the data were processed

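RNA of B-CPAP cells was sequenced in 2 shGFP and 2 shLDHA libraries. Per the methods, reads were trimmed with Trim Galore, aligned to hg19 with STAR, counted with HTSeq on GENCODE genes and normalized by TMM. HISAT2 and hg38 stand in the submitters' processing notes instead, so the build behind the table is unclear. What the authors deposited under the name of raw counts is FPKM with 2 decimals, so limma (version 3.58.1, R 4.3.3) with a variance trend and Benjamini-Hochberg adjustment over all 13291 tested rows took the place of a count test. Rows with no name (224, with 0.361% to 3.53% of the FPKM total) and names turned into dates (27) were left out. TMM was unweighted and trimmed 30% of M values and 5% of A values. Lengths and GC content came by symbol from GENCODE version 44, 1 transcript a gene, and the length offsets are splines with 5 degrees of freedom. Standard errors rest on 2 residual degrees of freedom a gene and the shared variance.

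Depth was estimated from the deposited FPKM of single-exon genes, where 84.9% to 88.8% of low values fell within 0.15 of whole fragment numbers. These depths and the fragment numbers from them are approximate and cover counting error only. The fit was tested on simulated data. The 10 genes and all lists were chosen with earlier results of these data known. Named beside them are LDHA and, from each list, up to 4 of those that passed, in order of p. MRPL43, SNW1, PPARGC1A, ESRRA, CREB1 and the cell type markers do not come from this rule and were picked with their values known. The NRF1 pattern was shortened by 1 letter after a first search. Alternatives were 4 scalings in all, pseudocounts, filters, offsets, a replicate block and fits without 1 library.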

Additional observations from a re-analysis of the deposited data

How the results depend on the processing

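With values as deposited 904 rows were higher and 3114 lower, and with TPM scaling 708 and 4609, against 2410 and 1709, and 0 of the 10 genes rose in either. With no filter on low FPKM 22087 rows were tested in place of 13291. There 1000 rows and 3 of the 10 genes fell, and 1648 rows and 2 of the 10 genes rose. With length and GC offsets, chosen after the data were seen, 1320 of 11919 rows rose and 1108 fell, and 0 of the 10 genes rose. Between the 4 fits without 1 library the counts ran from 0 to 3 risen and 0 to 5 fallen of the 10 genes and from 0 to 2732 risen and 0 to 1759 fallen rows, and the log2 fold change of LDHA from -2.52 to -2.37. The lowest counts came without control library 1 or 2, where limma passed 0 rows, with 2096 and 2241 higher and 1323 and 1452 lower at an unadjusted p under 0.05. There the lone control is assumed to vary like the knockdown pair. Changes that turned sign were those of DGUOK (-0.044) and QTRT1 (-0.019) with TPM scaling and of RPUSD3 (-0.046) and QTRT1 (-0.25) with length and GC offsets. The cause was not tested.

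The replicate numbers are shared by label only, with a correlation of 0.12 between the deviations of same-numbered libraries. With the replicate block 2209 rows rose and 1233 fell, SLIRP passed (adjusted p = 0.029 by limma) and TFB2M (0.067), MTERF4 (0.053), MTERF3 (0.062), TRMU (0.051) and MTO1 (0.073) did not. With the replicate block and length offsets 1910 of 11919 rows rose and 1259 fell. Pseudocounts of 0.01 and 1, a filter at 1 FPKM and upper quartile scaling changed no call of the 10 genes. Depth limits TEFM and PNPT1 most, which rest on 42 to 381 estimated fragments a library.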
